A study of Homo sapiens with 18 samples.

Results

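Described here are the genes of nucleotide synthesis and one-carbon metabolism in GM12878, a human lymphoblastoid line made from B cells by Epstein-Barr virus (EBV), after knockout of single NF-κB subunits. The genes were chosen by symbol from a list of 39 covering purine and pyrimidine synthesis, salvage, nucleotide kinases, the folate and methionine cycles and nucleotide breakdown. Of these, 38 were found among the 17155 genes of the table, and all 38 had a mean of at least 10 over the 18 libraries, which put them among the 12381 genes tested. The remaining gene, NME2, was not analysed here.

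Polyadenylated RNA was measured in 18 libraries, 3 in each of 6 groups. In 5 groups a lentiviral guide RNA targeted 1 NF-κB subunit, namely cRel (gene REL), p50 (NFKB1), p52 (NFKB2), RelA (RELA) or RelB (RELB), and in the control group the guide targeted no gene. All groups, controls included, were EBV-transformed cells whose genotype label reads wildtype LMP1, the viral membrane protein that keeps NF-κB active. Puromycin (3 µg/ml) was kept on all of them for 5 days after transduction, and loss of each subunit was checked by immunoblot, per the labels' protocols. Whether a line was 1 clone or a pool of cells, and whether the 3 libraries of a group came from separate cultures throughout, is not stated in the sources used here.

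Purine nucleotides are built step by step on phosphoribosyl pyrophosphate (PRPP) as far as inosine monophosphate, from which separate branches lead to adenine and guanine nucleotides. Pyrimidines are built as a free ring that is joined to PRPP late, and CTP is made from UTP. The folate cycle carries single carbon units for purines, thymidylate and methionine, and the methionine cycle makes S-adenosylmethionine, the methyl donor of the cell. Dividing B cells draw on all of these routes, and EBV is known to switch them on in newly infected B cells.

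Values are deposited normalised read counts, that is, read counts divided by a size factor for each library. Fold changes are differences in mean log2(value + 1), knockout minus control, from limma, with standard errors (SE), and calls were made at an adjusted p under 0.05, by the Benjamini-Hochberg method over the 12381 genes of each contrast. "Rose" and "fell" are used for called genes only, and means are given ± SD with n = 3 libraries per group. Recovered depth was 15.2 to 37.5 M reads per library (median 22.1 M). Of the subunit genes, the targeted mRNA was lower in its own knockout for NFKB1 (log2 fold change -0.59), NFKB2 (-0.44) and RELA (-0.69). REL mRNA was not called lower in the libraries labelled cRel (-0.02, adjusted p = 0.96), and RELB mRNA was higher in those labelled RelB (0.31, adjusted p = 0.00017). These libraries are therefore called cRel-labelled and RelB-labelled, and every direction given for them rests on the label. Control 3, p52 library 3 and RelA library 2 stood apart from their groups in how their values varied with gene length, and calls lost without 1 of them are given beside the result. Of the B-cell markers, 8 of 8 were present, while CD3D (mean 0.368), CD14 (1.22), CD2 (5.16) and LYZ (7.79) were near 0 and NKG7 (443), CSF1R (523) and COL1A1 (1199) were not.

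Most of these genes were lower in the p52 knockout and in the RelB-labelled libraries, and few differed from the control in the RelA knockout or the cRel-labelled libraries. In the RelB-labelled libraries 24 of 38 fell and 3 rose, against 34.7% of all tested genes that fell and 33.1% that rose. In the p52 knockout 23 fell and 3 rose, with 26.4% of all tested genes falling and 24.5% rising. In the p50 knockout 14 fell and 1 rose, beside 19.6% and 17.0% of all tested genes. In the RelA knockout 1 fell and 3 rose (2.63% and 2.92% of all tested genes), and in the cRel-labelled libraries 2 fell and none rose (1.92% and 4.17%). The share of the 38 that fell was thus 63.2% in the RelB-labelled libraries, 60.5% in the p52 knockout and 36.8% in the p50 knockout, all above the share over all genes, whereas 2.63% in the RelA knockout equalled it. In the cRel-labelled libraries 5.26% fell, above 1.92%, and in the RelA knockout 7.9% rose, above 2.92%, but these rest on 2 and 3 genes. The median log2 fold change of the 38 was -0.31, -0.29 and -0.13 in the RelB-labelled libraries and the p52 and p50 knockouts. It was -0.06 and -0.10 in the RelA knockout and the cRel-labelled libraries. The median over all tested genes was -0.02 in the cRel-labelled libraries, -0.01 in the RelA knockout and 0.00 in the other 3. All 5 contrasts use the same 3 controls. After quantile normalization the split of fallen to risen was 21 to 7 in the RelB-labelled libraries, 8 to 3 in the p50 knockout and 0 to 3 in the RelA knockout. Of all tested genes 8211, 4006 and 593 were then called in the same order, and their split by direction is not reported here. The comparison of shares above was made without quantile normalization, and whether it holds after it was not tested.

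**Figure D1:**
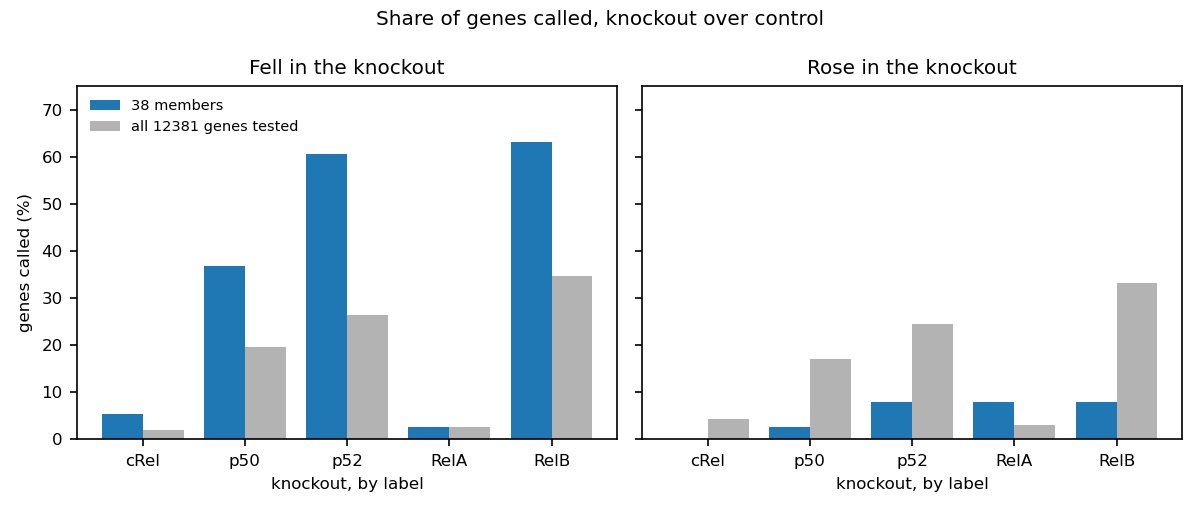
Percentage of genes called lower (left) and higher (right) in each knockout, named by its label, for the 38 genes of nucleotide and one-carbon metabolism (blue) and for all 12381 genes tested (grey). The blue bar for fallen genes reaches 63.2% in the RelB-labelled libraries and 60.5% in the p52 knockout, against grey bars of 34.7% and 26.4%.

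The summed level of the 38 genes was 106780.5 to 108554 in the RelB-labelled libraries, 108348 to 110634 in the p52 knockout, 118646 to 123966 in the p50 knockout, 122549.9 to 125897 in the cRel-labelled libraries and 131369 to 132637 in the RelA knockout, against 130389 to 136034 in the controls. The first 4 ranges lie below every control, and the RelA range lies inside that of the controls. The group mean was 19.0% below the control in the RelB-labelled libraries, 17.7% in the p52 knockout, 9.06% in the p50 knockout, 6.08% in the cRel-labelled libraries and 0.721% in the RelA knockout. Markers of proliferation moved in the same groups. Of 10 such markers (MKI67, TOP2A, CCNA2, CCNB1, CDK1, PCNA, MCM2, MCM5, BUB1 and AURKA), 10 fell in the RelB-labelled libraries, 10 in the p52 knockout and 9 in the p50 knockout, none fell in the other groups, and 1, BUB1, rose in the RelA knockout. Their summed level was 49458.5 to 51629 in the RelB-labelled libraries, 58473 to 65102 in the p52 knockout, 65644 to 74989 in the p50 knockout, 84826 to 90470.4 in the cRel-labelled libraries and 87438 to 90978 in the RelA knockout, against 87444 to 90282 in the controls. That is 43.0%, 31.3% and 20.7% below the control mean in the first 3 of these groups and 1.36% below it in the cRel-labelled libraries. The part of these markers in the falls described below was not tested, and in bulk RNA fewer cells of a kind and less RNA per cell cannot be told apart.

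**Figure D2:**
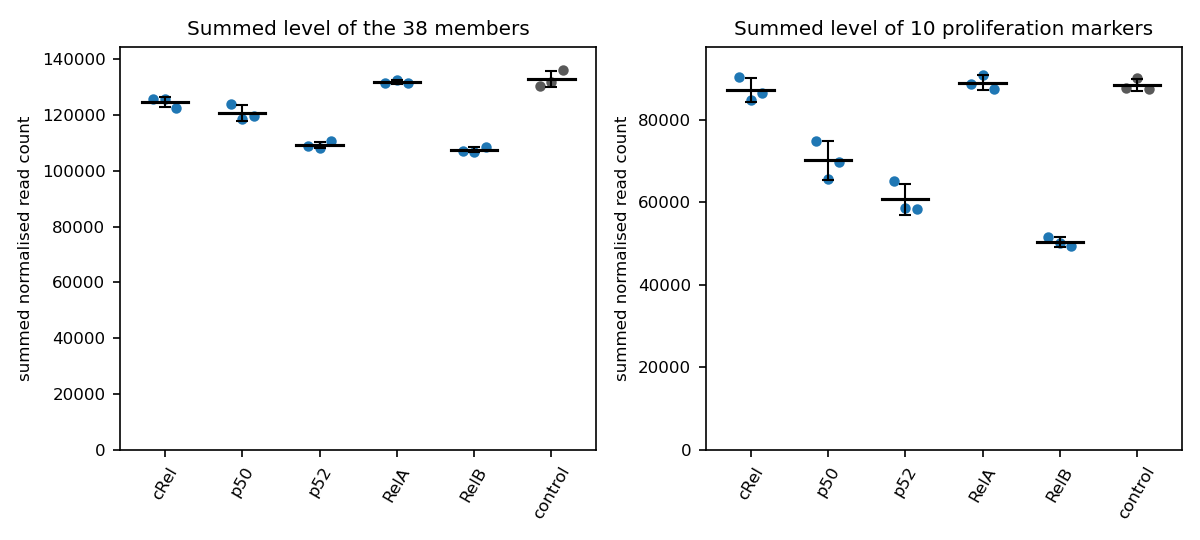
Summed normalised read count of the 38 genes of nucleotide and one-carbon metabolism (left) and of 10 proliferation markers (right) in the 18 libraries. Points are libraries, long bars are group means and error bars are SD (n = 3); the RelB-labelled and p52 libraries lie below all controls in both panels.

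Over all 5 knockouts, 30 of the 38 genes were called in at least 1. Of these, 24 were called only as lower, 4 only as higher (CTPS2, AK4, DCK and MTR), and ADA and SAMHD1 were higher in some knockouts and lower in others. The 8 called in none were PPAT, IMPDH2, APRT, CMPK1, DGUOK, DCTD, MTHFD1L and AHCY. The share of all tested genes called in at least 1 knockout was not counted here. In the RelB-labelled contrast by itself 8391 of the 12381 tested genes were called, so the 30 is not given as a trait of this list. Of the 74 calls, 56 held under each setting tried, and 15 were lost when 1 library was left out.

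**Figure D3:**
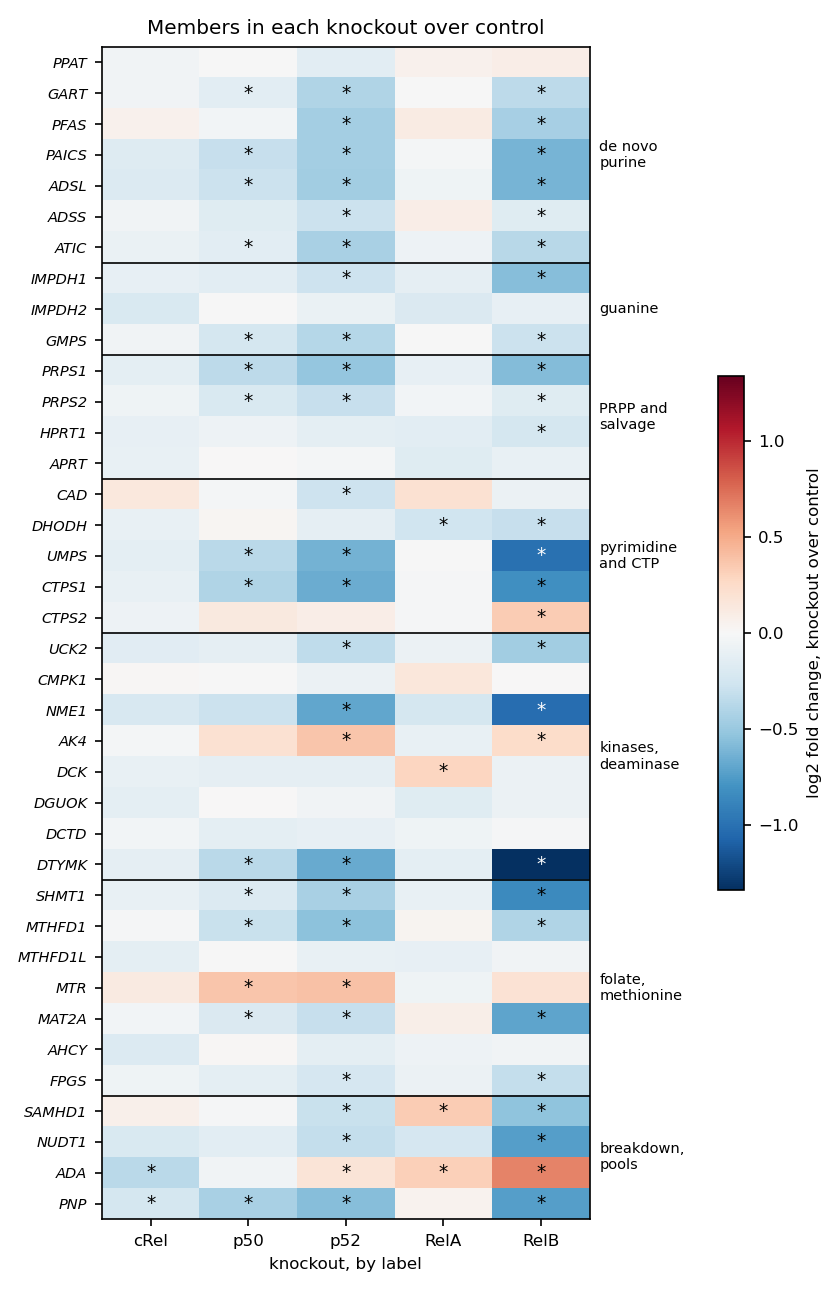
Log2 fold change over the control (colour, blue lower, red higher) of the 38 genes, ordered by role, in the 5 knockouts named by label. Asterisks mark adjusted p under 0.05; the p52 and RelB columns are mostly blue, with CTPS2, AK4, MTR and ADA among the red rows.

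Most genes of the chain that builds inosine monophosphate fell in the RelB-labelled libraries and the p52 knockout. Of its 7 genes here, with ADSS of the adenine branch counted among them, 6 fell and none rose in the RelB-labelled libraries, 6 fell in the p52 knockout and 4 in the p50 knockout, and none was called in the RelA knockout or the cRel-labelled libraries. Of all tested genes 34.7% fell in the RelB-labelled libraries, 26.4% in the p52 knockout and 19.6% in the p50 knockout. The gene that was called in none of the 5 was PPAT, which encodes the amidotransferase of the first committed step. PAICS, a bifunctional enzyme of the middle steps, had 9389, 9267 and 9717 in the RelB-labelled libraries, 10769, 10532 and 10347 in the p52 knockout and 12523, 10632 and 11948 in the p50 knockout, against 14328, 14545 and 14620.4 in the controls. All 9 of these knockout values were below the lowest control. The log2 fold changes of PAICS were -0.62, SE 0.06, adjusted p = 4e-09 in the RelB-labelled libraries, -0.46, SE 0.06, adjusted p = 9.9e-07 in the p52 knockout and -0.31, SE 0.06, adjusted p = 0.00024 in the p50 knockout. PPAT had 1592, 1588 and 1683 in the RelB-labelled libraries, 1352, 1474 and 1346 in the p52 knockout and 1493, 1551 and 1536 in the p50 knockout, against 1485, 1669 and 1441 in the controls. Each of these 3 groups overlapped the controls, and the log2 fold changes were 0.08 (adjusted p = 0.229), -0.14 (0.0657) and 0.00 (0.983) in the RelB-labelled libraries and the p52 and p50 knockouts.

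PPAT and PAICS are neighbours on chromosome 4 and are read in opposite directions from starts 137 bases apart, so that the 250 bases before the one start and the 250 before the other share 136 bases. Both stretches are shown because these genes share a promoter region while their values differ. They are from RefSeq on GRCh38.p14, at chr4:56435616-56435865 on the minus strand for PPAT and chr4:56435502-56435751 on the plus strand for PAICS, and capitals mark the letters CACGTG, an E-box that MYC and MAX are known to bind and that reads alike on both strands.
PPAT: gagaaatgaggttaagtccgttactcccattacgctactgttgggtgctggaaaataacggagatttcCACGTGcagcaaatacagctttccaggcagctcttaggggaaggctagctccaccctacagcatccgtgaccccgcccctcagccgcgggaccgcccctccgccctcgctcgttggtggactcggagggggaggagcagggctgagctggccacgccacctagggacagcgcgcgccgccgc
PAICS: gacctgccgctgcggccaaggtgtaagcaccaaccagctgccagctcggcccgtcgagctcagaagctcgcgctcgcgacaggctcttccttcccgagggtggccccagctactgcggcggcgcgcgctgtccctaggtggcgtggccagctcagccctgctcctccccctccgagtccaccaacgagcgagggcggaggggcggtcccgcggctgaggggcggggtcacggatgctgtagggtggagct
The E-box begins 182 bases before the PPAT start, and the same letters lie just inside PAICS, so that the 250 bases before the PAICS start hold none. Other annotated PAICS transcripts begin inside PPAT, so the annotated genes overlap (56393362 to 56435615 for PPAT and 56410507 to 56464578 for PAICS). Whether the authors' counting used the strand is not stated in the sources used here, and reads of the overlap could not be separated.

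GART, a trifunctional enzyme of the early steps, ADSL, which acts in the chain and again in the adenine branch, and ATIC, which closes the purine ring, fell in the RelB-labelled libraries and in the p52 and p50 knockouts. ADSL had 2097, 2088 and 2132 in the RelB-labelled libraries and 2254, 2233 and 2564 in the p52 knockout, against 3068, 3142 and 3517 in the controls. Neither group overlapped the controls, with log2 fold changes of -0.62 (adjusted p = 1.7e-08) and -0.46 (3e-06), and of -0.29 (0.00128) in the p50 knockout. GART averaged 3924 ± 126 in the RelB-labelled libraries and 3807 ± 162 in the p52 knockout, against 5013 ± 138 in the controls, with log2 fold changes of -0.35 (6.1e-06) and -0.40 (3.2e-06). ATIC averaged 5249.6 ± 172 and 5008 ± 216 in these 2 groups against 6784 ± 390.3 in the controls, with -0.37 (5.8e-06) and -0.44 (1.5e-06). For both genes the falls in the p50 knockout were small and depended on single libraries. For GART in the p50 knockout the log2 fold change was -0.14 and the adjusted p was 0.0428, 0.19 without p50 library 2, 0.058 without p50 library 3, 0.11 without control 2 and 0.097 without control 3, and 0.011 to 0.67 over all settings. For ATIC in the p50 knockout it was -0.15 with an adjusted p of 0.0481, 0.11 without p50 library 2, 0.15 without p50 library 3, 0.058 without control 1 and 0.21 without control 3, and 0.03 to 0.82 over all settings.

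PFAS, the synthase of the fourth step of the chain, fell in the RelB-labelled libraries (log2 fold change -0.45, adjusted p = 5.7e-06) and in the p52 knockout (-0.46, 9.7e-06), and was not called in the p50 knockout (-0.04, 0.716). The direct test placed PFAS higher in the p50 knockout than in the p52 knockout by a log2 difference of 0.42 (SE 0.07, adjusted p = 0.00011). ADSS, which opens the adenine branch, fell in the p52 knockout (-0.29, adjusted p = 0.00168). For the RelB-labelled libraries ADSS had a log2 fold change of -0.17 and an adjusted p of 0.0432, 0.16 without RelB-labelled library 2, 0.061 without RelB-labelled library 3, 0.056 without control 1, 0.092 without control 2 and 0.083 without control 3, and 0.024 to 0.49 over all settings.

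The promoters of ATIC (chr2:215311809-215312058, plus strand) and MTHFD1 (chr14:64388103-64388352, plus strand) are shown, from RefSeq on GRCh38.p14, as the other stretches that hold an E-box, in capitals, before genes that fell in the p50 and p52 knockouts and the RelB-labelled libraries. Those of DTYMK (chr2:241686816-241687065, minus strand) and UMPS (chr3:124730202-124730451, plus strand), which fell in the same groups, are shown for comparison and hold none.
ATIC: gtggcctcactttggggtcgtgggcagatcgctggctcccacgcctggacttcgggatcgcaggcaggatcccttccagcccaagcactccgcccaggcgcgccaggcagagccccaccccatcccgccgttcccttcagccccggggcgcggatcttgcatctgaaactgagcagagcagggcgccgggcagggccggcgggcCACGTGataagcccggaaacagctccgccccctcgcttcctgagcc
MTHFD1: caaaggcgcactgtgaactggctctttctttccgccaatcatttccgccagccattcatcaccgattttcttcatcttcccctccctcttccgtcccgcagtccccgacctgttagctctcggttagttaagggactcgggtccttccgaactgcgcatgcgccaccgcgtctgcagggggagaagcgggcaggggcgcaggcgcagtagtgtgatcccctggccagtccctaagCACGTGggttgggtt
DTYMK: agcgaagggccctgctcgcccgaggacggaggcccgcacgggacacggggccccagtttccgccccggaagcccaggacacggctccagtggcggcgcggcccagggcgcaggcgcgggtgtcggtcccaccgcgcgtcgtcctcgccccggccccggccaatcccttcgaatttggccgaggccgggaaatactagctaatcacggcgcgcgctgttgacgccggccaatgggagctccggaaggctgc
UMPS: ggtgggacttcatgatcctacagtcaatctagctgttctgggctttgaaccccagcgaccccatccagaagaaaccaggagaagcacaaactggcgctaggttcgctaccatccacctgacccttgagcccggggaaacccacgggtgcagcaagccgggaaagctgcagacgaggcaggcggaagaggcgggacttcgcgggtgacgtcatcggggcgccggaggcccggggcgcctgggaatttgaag
The E-box begins 46 bases before the start of ATIC and 15 bases before that of MTHFD1. In windows running from 250 bases before to 50 after the start, CACGTG was found in 11 of the 36 genes with a promoter in RefSeq (30.6%), in 12.8% of the 9331 tested genes matched by symbol and in 7.26% of 35116 windows of all genes. Among the 23 of the 36 that fell in the RelB-labelled libraries it was found in 7, and among the other 13 in 4. The site shared by PPAT and PAICS is counted for both genes. The shares of genes count a gene with the letters in any of its windows, whereas the 7.26% counts single windows, so these are unlike measures. Other motifs were closer to their background. CCAAT, searched on both strands, was found in 47.2% of the 36 against 43.6% of the tested genes, and TTTNGCGC, a form of the E2F site, in 5.56% against 3.57%. These matches describe letters in a window, not binding.

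In the guanine branch the isoenzymes of inosine monophosphate dehydrogenase, the rate-limiting step to guanine nucleotides, gave different calls. IMPDH1 had 1302, 1375 and 1397 in the RelB-labelled libraries and 1722, 1615 and 1644 in the p52 knockout, against 1947, 1975 and 2104 in the controls. Neither group overlapped the controls, and IMPDH1 fell with log2 fold changes of -0.56 (adjusted p = 1.2e-07) and -0.27 (0.00137). IMPDH2, the isoenzyme that dominates in dividing lymphocytes, was called in no knockout, with log2 fold changes of -0.11 to -0.01 in the RelB-labelled libraries and the p52 and p50 knockouts and of -0.21 and -0.19 in the cRel-labelled libraries and the RelA knockout. Per kilobase of merged exon, IMPDH2 was the most abundant of the 38 in the controls, at 2244 normalised reads, followed by AHCY at 2163 and PAICS at 1929, while IMPDH1 stood at 549 and the lowest, DHODH, at 100.6. GMPS, which makes guanosine monophosphate, fell in the RelB-labelled libraries (-0.29, 3.4e-05), the p52 knockout (-0.38, 1.8e-06) and the p50 knockout (-0.23, 0.00102). The GMPS call in the p50 knockout had an adjusted p of 0.051 after quantile normalization.

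The enzymes that make PRPP, the sugar donor of both pathways, fell together. PRPS1 had 1939, 1974 and 1971 in the RelB-labelled libraries, 2087, 1999.6 and 2043 in the p52 knockout and 2398, 2278 and 2189.9 in the p50 knockout, against 2785, 2869 and 3129 in the controls. The knockout values did not reach the controls, and the log2 fold changes were -0.58 (adjusted p = 5.3e-09), -0.52 (1.1e-07) and -0.35 (3.8e-05) in the same order. PRPS2, the second synthetase, fell most in the p52 knockout (-0.31, 0.00018). In the p50 knockout PRPS2 had a log2 fold change of -0.21 and an adjusted p of 0.00982, 0.059 without p50 library 2, and 0.0048 to 0.13 over all settings. In the RelB-labelled libraries it had -0.16 and 0.0198, 0.078 without RelB-labelled library 2 and 0.078 without control 1, and 0.016 to 0.48 over all settings. Of the salvage enzymes, HPRT1, which recycles hypoxanthine and guanine, fell in the RelB-labelled libraries alone of the 5 contrasts (-0.24), with an adjusted p of 0.014, 0.061 without RelB-labelled library 2 and 0.063 without control 3, and 0.0073 to 0.17 over all settings. HPRT1 did not differ between the 5 knockouts in the F-test (adjusted p = 0.358). APRT, which recycles adenine, was called in none and spanned -0.16 in the RelA knockout to 0.00 in the p50 knockout.

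Of the later pyrimidine steps, UMPS and CTPS1 fell in the RelB-labelled libraries and the p52 and p50 knockouts. UMPS, the bifunctional enzyme that makes uridine monophosphate, had 723, 690.3 and 731 in the RelB-labelled libraries, 857, 922 and 994 in the p52 knockout and 1047, 1190.3 and 1113 in the p50 knockout, against 1309, 1449 and 1530.5 in the controls. Every RelB-labelled value lay below every p52 value, and none of the 9 overlapped the controls. UMPS fell with log2 fold changes of -0.997, SE 0.08, adjusted p = 1.5e-10 in the RelB-labelled libraries, -0.63, SE 0.08, adjusted p = 5.7e-07 in the p52 knockout and -0.35, SE 0.08, adjusted p = 0.00093 in the p50 knockout. The direct test of the p52 knockout over the RelB-labelled libraries gave a log2 difference of 0.37 (SE 0.08, adjusted p = 0.00039).

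The paired CTP synthases moved in opposite directions in the RelB-labelled libraries. CTPS1, which lymphocytes need to divide and whose inherited loss causes an immune deficiency marked by EBV disease, had 2154, 2217 and 2152 there, 2482, 2432 and 2387 in the p52 knockout and 3113, 2899.8 and 2745 in the p50 knockout, against 3781, 3843 and 3921 in the controls. The CTPS1 groups were separated from the controls and spread little, and the log2 fold changes were -0.82 (adjusted p = 2.7e-11), -0.66 (5.8e-09) and -0.40 (1.4e-05). CTPS2, the other isoenzyme, had 1225, 1071 and 1126 in the RelB-labelled libraries, 986, 904 and 976 in the p52 knockout and 997, 930.1 and 1024 in the p50 knockout, against 909.7, 877 and 907 in the controls. CTPS2 rose in the RelB-labelled libraries (0.34, 0.00012) and was not called in the p52 (0.09, 0.289) or p50 (0.13, 0.135) knockout. In the controls CTPS1 stood at 334 and CTPS2 at 163 normalised reads per kilobase.

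Of the earlier pyrimidine steps, CAD, the trifunctional enzyme that starts the ring, averaged 3694 ± 367 in the p52 knockout against 4466 ± 425 in the controls and fell there, with no overlap between the groups (-0.27, adjusted p = 0.00427, and 0.063 after quantile normalization). CAD was not called in the RelB-labelled libraries (-0.08, 0.369), and the direct test gave a log2 difference of -0.20 (SE 0.08, adjusted p = 0.0371) for the p52 knockout over the RelB-labelled libraries. DHODH, the mitochondrial dehydrogenase, fell in the RelB-labelled libraries (-0.31, 0.00088). In the RelA knockout DHODH had a log2 fold change of -0.26 and an adjusted p of 0.0343, 0.052 without RelA library 1, 0.077 without RelA library 2, 0.15 without RelA library 3, 0.064 without control 1 and 0.2 without control 3, and 0.022 to 0.2 over all settings. It was the only one of the 38 that fell in the RelA knockout.

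**Figure D4:**
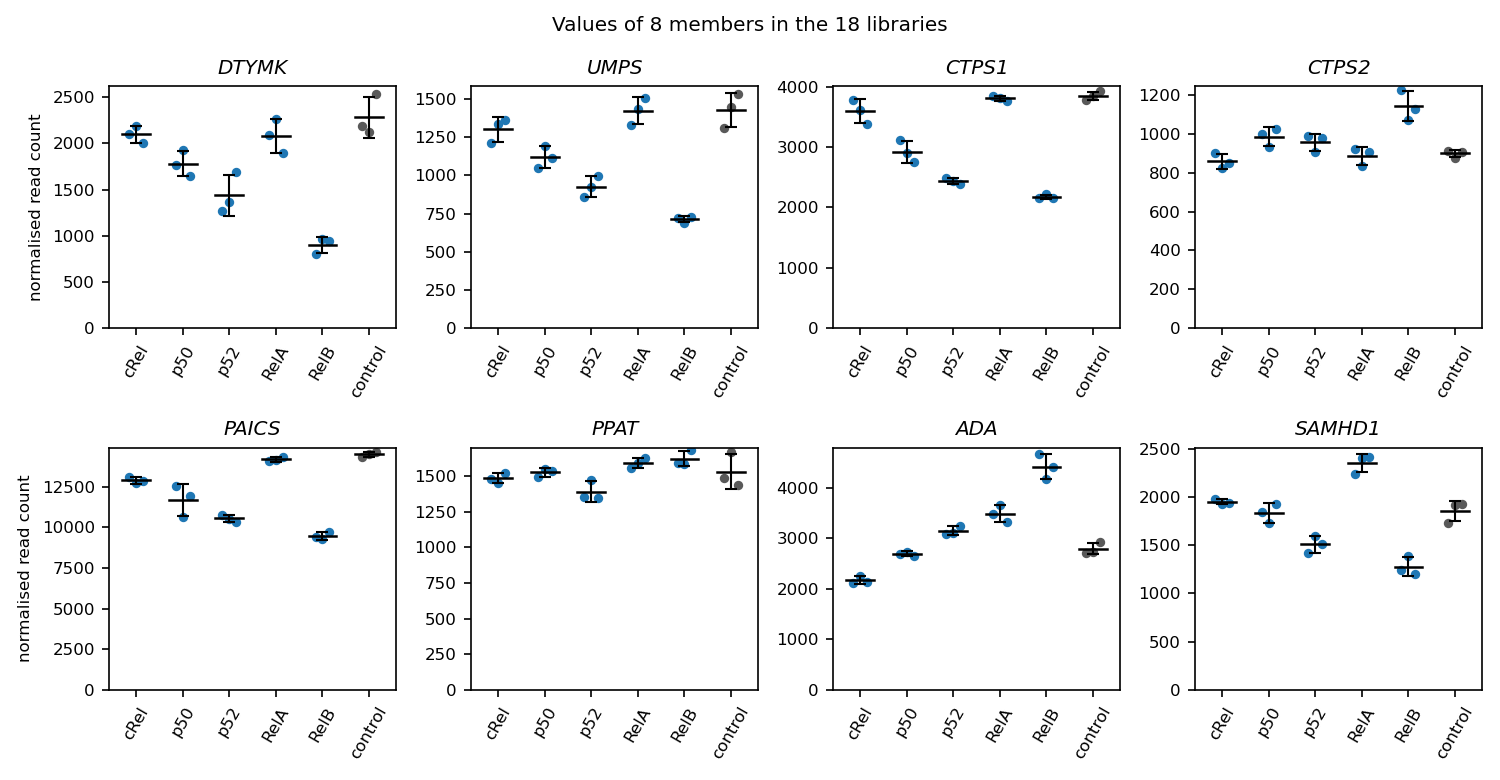
Normalised read counts of 8 genes in each of the 18 libraries; points are libraries, long bars are group means and error bars are SD (n = 3). DTYMK, UMPS, CTPS1 and PAICS step down through the p50, p52 and RelB-labelled groups, PPAT does not, CTPS2 is higher in the RelB-labelled libraries, and ADA and SAMHD1 differ in direction between groups.

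Of all 38 genes the lowest log2 fold change in the RelB-labelled libraries was that of DTYMK, thymidylate kinase, which makes dTDP for DNA synthesis. DTYMK had 806, 961 and 945 in the RelB-labelled libraries, 1265, 1362 and 1691 in the p52 knockout and 1771, 1924 and 1651 in the p50 knockout, against 2183, 2127 and 2534 in the controls. All 9 knockout values lay below the lowest control, and the RelB-labelled values lay below the lowest p52 value too. The log2 fold changes were -1.33, SE 0.10, adjusted p = 7.6e-11 in the RelB-labelled libraries, -0.67, SE 0.10, adjusted p = 6.2e-06 in the p52 knockout and -0.35, SE 0.10, adjusted p = 0.00666 in the p50 knockout, and the p52 knockout over the RelB-labelled libraries gave a log2 difference of 0.66 (SE 0.10, adjusted p = 8.5e-06). DTYMK was not called in the cRel-labelled libraries (-0.12, 0.527) or the RelA knockout (-0.13, 0.476).

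NME1, a nucleoside diphosphate kinase, had 1010.5, 1186 and 1145 in the RelB-labelled libraries and 1200.4, 1289 and 1765 in the p52 knockout, against 2075, 1924 and 2867 in the controls. Neither group overlapped the controls, although p52 library 3 and control 3 were each the highest of their group, and NME1 fell, with log2 fold changes of -1.02 (adjusted p = 3.5e-07) and -0.69 (0.00012). NME1 overlaps the read-through gene NME1-NME2 on chromosome 17, so reads of NME1 may have been divided between these entries, which was not tested. NME1-NME2 had far lower values than NME1, 242 to 263 in the RelB-labelled libraries against 293 to 313 in the controls. NME1-NME2 fell in the RelB-labelled libraries (-0.26, adjusted p = 0.0238) and was not called in the p52 knockout (-0.10, 0.386). UCK2, which phosphorylates uridine and cytidine for salvage, fell in the RelB-labelled libraries (-0.46, 9.9e-07) and in the p52 knockout (-0.34, 0.00011). AK4, a mitochondrial adenylate kinase, rose instead. Its values were 2773, 3004 and 2608 in the p52 knockout and 2671, 2412 and 2585 in the RelB-labelled libraries, against 2456, 2076 and 1954 in the controls. The p52 values lay above the controls (0.37, 0.00073), while the RelB-labelled values overlapped them, with 0.25 and an adjusted p of 0.0125, 0.054 without RelB-labelled library 1 and 0.078 without control 3, and 0.0011 to 0.078 over all settings.

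The deoxynucleoside kinases and the dCMP deaminase were mostly not called. DCK, which activates deoxycytidine and several nucleoside drugs, rose in the RelA knockout. It had 1758, 1808 and 2026 in the RelA knockout against 1549, 1559 and 1459 in the controls. The RelA values lay above the controls by a log2 fold change of 0.29 with an adjusted p of 0.0191, 0.13 without RelA library 3 and 0.078 without control 3, and 0.0043 to 0.13 over all settings. In the other groups DCK was not called (-0.12 in the p52 knockout and -0.08 in the RelB-labelled libraries). DGUOK, its mitochondrial relative, DCTD, the deaminase that feeds thymidylate synthesis, and CMPK1, which phosphorylates UMP and CMP, were called in none. Of these, DGUOK (adjusted p = 0.288) and DCTD (0.279) did not differ between the knockouts in the F-test either.

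In the folate cycle the cytosolic enzymes fell. SHMT1, the cytosolic serine hydroxymethyltransferase, had 833, 809.8 and 789.8 in the RelB-labelled libraries and 1146, 1011 and 1087 in the p52 knockout, against 1389, 1458 and 1533 in the controls. Both groups lay below the controls, with log2 fold changes of -0.85, SE 0.06, adjusted p = 1.7e-10 in the RelB-labelled libraries and -0.43, SE 0.06, adjusted p = 9.1e-06 in the p52 knockout. In the p50 knockout SHMT1 had -0.18 and an adjusted p of 0.0322, 0.14 without p50 library 2, 0.1 without p50 library 3, 0.066 without control 2 and 0.12 without control 3, and 0.012 to 0.14 over all settings. MTHFD1, the trifunctional cytosolic folate enzyme, had 5289, 4981 and 4916 in the RelB-labelled libraries, 4721, 4712 and 4273 in the p52 knockout and 5871, 4858 and 5581 in the p50 knockout, against 6469.7, 6894 and 6682 in the controls. None of these groups reached the controls. MTHFD1 fell with log2 fold changes of -0.40 (adjusted p = 9.5e-06), -0.55 (3.7e-07) and -0.30 (0.0009), and the p52 knockout over the RelB-labelled libraries gave a log2 difference of -0.15 (SE 0.06, adjusted p = 0.0622). MTHFD1L, its mitochondrial counterpart, was called in no knockout, with log2 fold changes from -0.13 in the cRel-labelled libraries to 0.00 in the p50 knockout, and an F-test adjusted p of 0.258. FPGS, which adds the glutamates that keep folate in the cell, fell in the RelB-labelled libraries (-0.32, 0.00058). FPGS in the p52 knockout had -0.22 and an adjusted p of 0.014, 0.068 without p52 library 2 and 0.062 without control 3, and 0.013 to 0.22 over all settings.

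In the methionine cycle MAT2A, which makes S-adenosylmethionine outside the liver, had 4296, 4346 and 3983 in the RelB-labelled libraries and 5602, 5727 and 5332 in the p52 knockout, against 6497, 7301 and 6781 in the controls. Both groups lay below the controls, with log2 fold changes of -0.70 (adjusted p = 1.4e-09) and -0.30 (0.00028, and 0.06 after quantile normalization). The direct test gave a log2 difference of 0.40 (SE 0.06, adjusted p = 1.5e-05) for the p52 knockout over the RelB-labelled libraries. In the p50 knockout MAT2A had -0.19 and an adjusted p of 0.0184, 0.061 without p50 library 3 and 0.1 without control 2, and 0.0097 to 0.48 over all settings. MTR, methionine synthase, rose. It had 2945, 2929 and 2400.4 in the p52 knockout and 2557, 2848 and 2756 in the p50 knockout, against 2327, 2283 and 1737 in the controls. Both groups lay above the controls, by 0.39 (adjusted p = 0.00168) and 0.37 (0.00395), and MTR was not called in the RelB-labelled libraries (0.19, 0.0756). AHCY, which hydrolyses S-adenosylhomocysteine, was called in none (-0.05 in the RelB-labelled libraries and, at its lowest, -0.18 in the cRel-labelled libraries), and after quantile normalization it was called higher in the RelB-labelled libraries (0.14, adjusted p = 0.019).

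The enzymes of breakdown and pool control moved in different directions in different knockouts. ADA, adenosine deaminase, whose inherited loss causes severe combined immunodeficiency, had 4666, 4164 and 4419 in the RelB-labelled libraries, 3483, 3653 and 3329 in the RelA knockout and 3091, 3095 and 3251 in the p52 knockout. It had 2696, 2733 and 2639 in the p50 knockout and 2121, 2253 and 2139 in the cRel-labelled libraries, against 2716, 2735 and 2916 in the controls. The RelB-labelled, RelA and p52 values were above every control, the cRel-labelled values were below every control, and the p50 values overlapped them. ADA rose in the RelB-labelled libraries (0.66, SE 0.06, adjusted p = 1.2e-09) and in the RelA knockout (0.32, SE 0.06, adjusted p = 0.00102) and fell in the cRel-labelled group (-0.36, SE 0.06, adjusted p = 0.00025). In the p52 knockout the rise was 0.17 with an adjusted p of 0.0144, 0.054 without control 1, and 0.00039 to 0.07 over all settings. Tested directly, the cRel-labelled libraries were lower than the RelA knockout, with a log2 difference of -0.68 (SE 0.06, adjusted p = 1.6e-08).

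PNP, purine nucleoside phosphorylase, which follows ADA in the breakdown of purine nucleosides, had 1479, 1430.4 and 1421 in the RelB-labelled libraries, 1662, 1552 and 1647 in the p52 knockout and 1876, 1664 and 1815 in the p50 knockout. The cRel-labelled libraries had 2071, 2033 and 2038, against 2194, 2357 and 2677 in the controls. All 12 values were below the lowest control. PNP fell with log2 fold changes of -0.73 (adjusted p = 2.3e-09), -0.57 (3.8e-07) and -0.43 (3.7e-05) in the first 3 groups. In the cRel-labelled libraries PNP had -0.23 with an adjusted p of 0.0401, 0.091 without cRel-labelled library 1, 0.12 without cRel-labelled library 2, 0.13 without cRel-labelled library 3, 0.056 without control 2 and 0.26 without control 3, and 0.012 to 0.26 over all settings. In the RelA knockout PNP was not called (0.04, 0.761).

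SAMHD1, which degrades deoxynucleotides and restricts retroviruses, had 1245, 1389 and 1201 in the RelB-labelled libraries, 1425, 1601 and 1511 in the p52 knockout and 2246, 2408 and 2417 in the RelA knockout, against 1736, 1914 and 1927 in the controls. The first 2 groups lay below the controls and the RelA knockout above them. SAMHD1 fell in the RelB-labelled libraries (-0.54, SE 0.07, adjusted p = 3e-07) and the p52 knockout (-0.30, SE 0.07, adjusted p = 0.0008) and rose in the RelA knockout (0.34, SE 0.07, adjusted p = 0.00244). The RelA knockout over the RelB-labelled libraries gave a log2 difference of 0.88 (SE 0.07, adjusted p = 1.5e-10). NUDT1, which clears oxidised nucleotides, averaged 553 ± 32.5 in the RelB-labelled libraries and 737 ± 40.9 in the p52 knockout, against 924 ± 118 in the controls. NUDT1 fell in the RelB-labelled libraries (-0.73, 5.2e-07), and in the p52 knockout it had -0.32 and an adjusted p of 0.00746, 0.063 without control 3, and 0.0044 to 0.063 over all settings.

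Between the knockouts themselves, 33 of the 38 genes differed in a moderated F-test over the 5 groups (86.8%), against 78.8% of all tested genes. The p52 knockout was higher than the RelB-labelled libraries in 13 of the 38 and lower in 4, where 23.9% and 21.5% of all tested genes were. Lower in the p52 knockout were ADA, CAD, CTPS2 and PPAT. The p50 knockout was higher than the p52 knockout in 15 and lower in 1, ADA, against 11.2% and 11.0% of all tested genes. The p50 knockout was higher than the RelB-labelled libraries in 19 and lower in 2, against 27.7% and 25.4% of all tested genes. The p52 knockout was higher than the RelA knockout in 2 (AK4 and MTR) and lower in 24, with 26.0% and 26.5% over all tested genes. The RelA knockout was higher than the RelB-labelled libraries in 23 and lower in 4, beside 34.1% and 33.1%. The p50 knockout was higher than the RelA knockout in 4 and lower in 16, beside 19.2% and 20.0%. The cRel-labelled libraries were higher than the RelB-labelled libraries in 22 and lower in 4 (33.4% and 32.4% of all tested genes), higher than the p52 knockout in 21 and lower in 3 (23.4% and 22.5%), and higher than the p50 knockout in 6 and lower in 6 (15.9% and 15.3%). They were lower than the RelA knockout in 4 genes (ADA, DCK, PNP and SAMHD1) and higher in none, against 4.75% and 6.20% of all tested genes.

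In the rest of these pathways RRM1, RRM2, TYMS and TK1, which serve the making of deoxynucleotides, fell in the RelB-labelled libraries and the p52 and p50 knockouts. Of 57 other genes of nucleotide and one-carbon metabolism measured, 24 fell (42.1%) and 17 rose (29.8%) in the RelB-labelled libraries, near the 34.7% and 33.1% of all tested genes. In the p52 knockout 26 of them fell (45.6%) and 8 rose (14.0%), beside 26.4% and 24.5% of all tested genes, and in the p50 knockout 19 fell (33.3%) and 7 rose (12.3%), beside 19.6% and 17.0%. In the RelA knockout 1 fell and 1 rose, where 2.63% and 2.92% of all tested genes did, and in the cRel-labelled libraries 2 fell and 3 rose, where 1.92% and 4.17% did. RRM2, the S-phase subunit of ribonucleotide reductase, had log2 fold changes of -1.29 in the RelB-labelled libraries, -0.95 in the p52 knockout and -0.77 in the p50 knockout. RRM1, its large subunit, had -0.79, -0.60 and -0.30 in the RelB-labelled, p52 and p50 groups. TYMS, thymidylate synthase, had -0.63, -0.37 and -0.38 in these groups. TK1, thymidine kinase, had -1.12, -0.39 and -0.28, the last with an adjusted p of 0.00684 (0.054 without p50 library 3). Not all genes of these steps were lower. RRM2B, another subunit of ribonucleotide reductase, averaged 1861, 2168 and 1980 in the RelB-labelled, p52 and p50 groups, against 1675 in the controls. TK2 averaged 329, 219 and 224 in these groups, against 203 in the controls.

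The calls for the mitochondrial folate enzymes SHMT2 and MTHFD2 depended on the processing. SHMT2 had log2 fold changes of -0.19 in the RelB-labelled libraries and -0.19 in the p52 knockout, called, and -0.06 in the p50 knockout, not called. Without control 3 the SHMT2 calls were lost in both (adjusted p = 0.08 and 0.11), in the p52 knockout also without p52 library 2 (0.065), and in both after quantile normalization (0.99 and 0.88). MTHFD2 fell, with -0.16, -0.20 and -0.22 in the RelB-labelled libraries and the p52 and p50 knockouts, and all 3 MTHFD2 calls were lost after quantile normalization (adjusted p = 0.84, 0.59 and 0.14). SLC25A32, a mitochondrial folate carrier, fell in the p50 knockout (-0.37, 7.7e-05), but its low values were not particular to that group. SLC25A32 averaged 1316 in the p50 knockout, 1326 in the p52 knockout and 1135 in the RelB-labelled libraries, against 1704 in the controls. In the RelA knockout CBS, which draws homocysteine out of the methionine cycle, rose (0.73, 0.00013) and AMPD3, an AMP deaminase, fell (-0.45, 0.00074). In the cRel-labelled libraries AMPD3 rose (0.70, 2.9e-06) and PHGDH, the first enzyme of serine synthesis, fell (-0.43, 0.00038). Higher CBS, higher AMPD3 and lower PHGDH were not particular to these groups. CBS averaged 326 (RelA), 260 (p50), 250 (RelB-labelled), 203 (cRel-labelled) and 183 (p52), against 196 in the controls. AMPD3 averaged 790 (cRel-labelled), 676 (p52), 648 (RelB-labelled), 506 (p50) and 355 (RelA), against 486. PHGDH averaged 537 (p52), 557 (cRel-labelled), 610 (RelB-labelled), 726 (RelA) and 864 (p50), against 750.

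Among factors known to act on these genes, MYC moved in different directions in the groups where the genes above fell. MYC rose in the RelB-labelled libraries (1.35, 1.3e-11), fell in the p52 knockout (-0.42, 0.00039) and the cRel-labelled libraries (-0.40, 0.006), and was not called in the p50 (0.06, 0.62) or RelA (0.00, 0.991) knockout. NRF1 fell in the RelB-labelled libraries (-1.14, 2.1e-11) and the p52 knockout (-0.51, 9.5e-06). In the p50 knockout NRF1 had -0.24 (0.0176, and 0.075 and 0.073 without p50 libraries 2 and 3). E2F1, which drives S-phase genes, fell, with -0.62 in the RelB-labelled libraries, -0.48 in the p52 knockout and -0.39 in the p50 knockout. ATF4 fell in the RelB-labelled libraries (-0.28, 0.00049, and 0.24 after quantile normalization). After quantile normalization ATF4 was instead called higher in the p52 (0.28, adjusted p = 0.00077) and p50 (0.17, 0.037) knockouts, where it was not called without it. MAX (0.08 in the RelB-labelled libraries, -0.06 in the p52 knockout) was not called in any knockout, but after quantile normalization it was called higher in the RelB-labelled libraries (adjusted p = 0.0046).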

How the data were processed

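The members and gene lists were chosen with earlier results of these data known. Reads were counted by the authors and normalised; the submitters' processing notes name STAR 2.5.2b, featureCounts 1.5.1, DESeq2 1.14.1 and the build GRCh37. The annotation, any gene filter and whether a strand setting was applied are not stated in the sources. The deposited unit is a normalised signal (coverage of genes in reads over 1 size factor per library): with those factors, 100% of 308790 values were whole reads within 0.0001.

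In R 4.3.3, limma 3.58.1 with an intensity trend was fitted once to log2(value + 1) of all 18 libraries, with a mean per group, over 12381 genes whose mean reached 10. The contrasts were each knockout against the control, a moderated F-test over the 5 knockouts and their 10 pairs, two-sided, with Benjamini-Hochberg adjustment within each contrast and calls at 0.05. P-values reflect only how far these libraries spread, which may be technical, and the log scale understates changes of low genes. As alternatives, edgeR 4.0.16 (quasi-likelihood) and DESeq2 1.42.0 were run on the recovered reads; edgeR called 8414 genes in the RelB-labelled libraries, 6381 and 4588 in the p52 and p50 knockouts, 671 in the RelA knockout and 814 in the cRel-labelled libraries.

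Same-numbered libraries were not treated as pairs, since the labels do not say that a replicate number marks a shared day or batch. In 0 of 5 knockouts did all 3 correlate above 0.1 with their control, but 16 of 18 libraries correlated best with one that shared their number. A shared origin of same-numbered libraries thus remains possible. Levels per kilobase use merged exon lengths of GENCODE 29; promoters are RefSeq GRCh38.p14, found for 36 of the 38 genes (ADSS as ADSS2), not for ADSL and IMPDH2. By rule the text names each member called in 2 or more knockouts, the 6 called members with the smallest adjusted p in each knockout, and of the other lists the 3 with the smallest, with 7 fixed genes and 6 factors. RRM2B and TK2 are given outside this rule. Motifs for NRF1 and NF-κB were also searched and are not reported here. Scripts were tested on simulated data. Alternatives were another pseudocount (5), other filters (none, or a mean of at least 100), TMM, quantile and length scaling, the replicate block, a fit of the contrast's libraries only, and leaving out each library; leaving out control 3, p52 library 3 and RelA library 2 together was added after seeing the data.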

Additional observations from a re-analysis of the deposited data

How the results depend on the processing

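Of the 74 calls of the 38 genes, 74 were kept with a pseudocount of 5, 74 with a mean of at least 100, 73 by DESeq2, 71 by edgeR, 70 after TMM scaling and 60 after quantile normalization. The genes that fell in the cRel-labelled libraries numbered 2, but 5 by DESeq2, 4 with the replicate block, 1 after TMM scaling, quantile normalization, the fit of that contrast's libraries only or the removal of control 3, p52 library 3 and RelA library 2, and 1 to 3 when 1 library was left out. The genes that rose in the p50 knockout numbered 1, but 2 by edgeR and after TMM scaling, 3 after quantile normalization and 1 to 2 when 1 library was left out. Those that fell there numbered 14, but 8 after quantile normalization and 10 to 17 when 1 library was left out. The 1 gene that fell in the RelA knockout became 0 after quantile normalization, in the fit of that contrast's libraries only and without the 3 libraries, and 0 to 2 when 1 library was left out; those that rose there were 2 to 4. The genes that rose in the RelB-labelled libraries numbered 3, but 7 after quantile normalization and 2 to 5 when 1 library was left out. In the p52 knockout 2 to 3 rose when 1 library was left out. Among the other genes of the pathways, leaving out 1 library gave 2 to 6 calls in the cRel-labelled libraries and 2 to 5 in the RelA knockout. AHCY, not called in the RelB-labelled libraries, was called higher there (0.14) after quantile normalization alone. The replicate numbers share no stated origin, and with the replicate block the fallen genes stayed at 24, 23 and 14 in the RelB-labelled libraries and the p52 and p50 knockouts, while 16 of 18 libraries had their highest correlation with one that shared their number. The cause of these shifts was not tested.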
